A study of Homo sapiens with 2 samples.

Results

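The genes that encode the proteins of the cytosolic ribosome are used in all dividing cells, and their promoters were followed here as a class that is constitutively open. A gene was a member when it was protein-coding, lay on an autosome and carried in the GENCODE annotation a name of the form RPL or RPS with a number and at most the letter A or X after it, or the name RPLP0, RPLP1, RPLP2, RPSA or FAU. The rule used names only and no measured value, and it gave 74 members among 19229 autosomal protein-coding genes. Of these, 43 encode proteins of the large (60S) subunit and 31 encode proteins of the small (40S) subunit, among them RPSA and FAU. They were spread over 20 of the autosomes, with 12 on chromosome 19 and 7 on chromosome 3.

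The study measured accessible chromatin by ATAC-seq, in which a transposase cuts and tags DNA wherever it is not covered, in G401, an established malignant rhabdoid tumor cell line that lacks SMARCB1, a subunit of the SWI/SNF remodelling complex. The control culture received the solvent DMSO and the treated culture received 3 μM MAK683, a small molecule that binds EED and so blocks PRC2, the complex that methylates lysine 27 of histone H3, and both were collected after 3 days. Each condition was a single library of a single cell line, so differences between them rest on 1 sample a side and are given without p-values. Both cultures share the SMARCB1 loss of the line, and no promoter peak was found at SMARCB1 in either library.

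Ribosomal proteins are assembled on ribosomal RNA in the nucleolus, and a cell needs about equal amounts of each of them. Their mRNAs are among the most abundant in growing cells and begin with a run of pyrimidines, the 5′ TOP motif, through which mTOR signalling controls their translation. Their promoters are short, mostly lie in CpG islands, and are used in nearly every cell type.

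For each gene, the height of its promoter was the pileup of the tallest peak that overlapped the 1 kb on either side of the transcription start site (TSS), divided by the tags of the library and given per 1000000 tags (RPM). The DMSO library held 16598348 tags after filtering and the MAK683 library 18265284, so that 1 tag was worth 0.0602 RPM and 0.0547 RPM. Ratios are given as log2 of the MAK683 height over the DMSO height, and negative values are lower in MAK683. Intervals of single genes are 95% intervals from the number of tags. They cover counting error only, not the differences that another culture or library would bring. Intervals of medians and of shares are taken over genes, and they leave out those differences too. The reads carry no molecular identifiers, and the calls kept 1 tag per position.

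The promoter sequences of the members that mark the ends of the comparison are shown from 100 bases before the TSS to 20 bases from it, 5′ to 3′ on the strand of the gene and read from GRCh37. The last 20 bases of each line are therefore the start of the transcript. Capitals mark each match on either strand to 1 of 8 short words: the ETS core CGGAAG, the YY1 word AAGATGGC, the SP1 GC box GGGCGG, the TATA box TATAAA, the CCAAT box, the E-box CACGTG, the NRF1 word GCATGCGC and the ZBTB33 palindrome CTCGCGAG. The first set holds the 4 members with the lowest ratio. RPL4 (chr15:66797174-66797293, minus strand) lines the tunnel through which the new peptide leaves, RPS28 (chr19:8386280-8386399, plus strand) sits where the mRNA leaves the 40S subunit, RPS27 (chr1:153963138-153963257, plus strand) is a zinc-binding 40S protein, and RPL24 (chr3:101405543-101405662, minus strand) reaches across to the 40S subunit.
RPL4: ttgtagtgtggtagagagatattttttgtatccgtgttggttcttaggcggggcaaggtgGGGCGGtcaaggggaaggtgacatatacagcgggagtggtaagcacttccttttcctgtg
RPS28: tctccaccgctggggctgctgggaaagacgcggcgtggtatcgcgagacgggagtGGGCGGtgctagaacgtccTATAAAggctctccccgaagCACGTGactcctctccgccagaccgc
RPS27: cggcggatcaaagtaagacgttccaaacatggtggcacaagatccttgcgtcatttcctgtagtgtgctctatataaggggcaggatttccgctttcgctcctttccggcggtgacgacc
RPL24: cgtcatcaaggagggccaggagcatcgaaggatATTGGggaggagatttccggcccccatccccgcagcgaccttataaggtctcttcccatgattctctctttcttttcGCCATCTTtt

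The second set holds the 4 members with the highest ratio. RPL14 (chr3:40498730-40498849, plus strand) is a 60S protein, RPS3 (chr11:75110462-75110581, plus strand) lies at the mRNA entry of the 40S subunit, RPS6 (chr9:19380215-19380334, minus strand) is the classical substrate of the S6 kinases, and RPS27A (chr2:55459724-55459843, plus strand) is made as a fusion of ubiquitin with a 40S protein.
RPL14: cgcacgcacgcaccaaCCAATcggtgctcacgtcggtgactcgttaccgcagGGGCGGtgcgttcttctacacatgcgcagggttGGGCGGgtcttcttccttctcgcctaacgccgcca
RPS3: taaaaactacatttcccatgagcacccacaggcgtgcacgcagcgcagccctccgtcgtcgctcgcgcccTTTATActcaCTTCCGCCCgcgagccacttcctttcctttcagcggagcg
RPS6: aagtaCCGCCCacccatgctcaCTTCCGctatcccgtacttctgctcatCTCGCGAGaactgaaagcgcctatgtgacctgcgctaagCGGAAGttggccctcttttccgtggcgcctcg
RPS27A: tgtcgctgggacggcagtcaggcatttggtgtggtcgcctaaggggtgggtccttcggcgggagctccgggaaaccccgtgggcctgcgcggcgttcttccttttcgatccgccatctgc

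The third set holds RPL15 (chr3:23958523-23958642, plus strand), a 60S protein with the tallest DMSO peak of the members, RPL11 (chr1:24018196-24018315, plus strand), a partner of 5S rRNA with the lowest, and RPS19 (chr19:42364225-42364344, plus strand), the gene most often mutated in Diamond-Blackfan anemia, an inherited failure of red cell production.
RPL15: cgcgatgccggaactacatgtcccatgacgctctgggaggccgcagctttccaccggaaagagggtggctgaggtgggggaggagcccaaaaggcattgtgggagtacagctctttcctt
RPL11: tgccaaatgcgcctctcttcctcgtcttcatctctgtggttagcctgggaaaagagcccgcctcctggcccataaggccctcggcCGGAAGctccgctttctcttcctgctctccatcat
RPS19: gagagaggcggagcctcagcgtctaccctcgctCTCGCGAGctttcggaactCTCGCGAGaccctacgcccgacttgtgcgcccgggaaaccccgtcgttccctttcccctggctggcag

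The members shared sequence features that their names did not select. The 300 bases from 250 before the TSS to 50 after it were searched in the members, in all autosomal coding genes, and in the 13120 of these with a peak in both libraries, which are the closer match because every member had such peaks. The ETS core was present in 42 members (56.8%), against 32.3% of genes with a peak in both libraries and 25.4% of all genes. The YY1 word was present in 11 members (14.9%) against 5.38% and 4.03%, and in 9 of these 11 a match lay after the TSS, as in RPL24. The ZBTB33 palindrome was present in 7 members (9.46%) against 2.04% and 1.46%, and RPS19 carried it in 2 places. These words were thus more frequent in the members than in either set of genes. The NRF1 word was present in 6 members (8.11%) against 5.62% and 4.19%, and the CCAAT box in 25 (33.8%) against 35.7% in both sets. For the GC box, the 43 members (58.1%) were below the 75.5% of genes with a peak in both libraries and closer to the 61.3% of all genes. The TATA box, in 6 members (8.11%), was above the 4.87% of genes with a peak in both libraries and below the 9.82% of all genes. The E-box was present in 5 members (6.76%) against 10.0% and 8.65%. ETS and GC box matches overlapped each other in 7 members, as in RPS3, and ETS and YY1 matches in 1. A pyrimidine start, counted as a C within 5 bases of the TSS followed by at least 4 further C or T bases, was found in 64 members (86.5%) against 22.2% of genes with a peak in both libraries and 21.7% of all genes. A match is a run of letters and not a bound site. The first exons of the members were short, with a median of 40.5 bp against 186 bp for all genes, and 66 were under 100 bp. GC content of the 300 bases was a median 59.7% in the members, against 67.0% in genes with a peak in both libraries and 63.7% in all genes.

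Every member had a promoter peak in both libraries at the threshold of the deposited calls. The 74 of 74 (100%, Wilson interval 95.1 to 100) stood beside 70.3% of all autosomal coding genes in DMSO and 75.0% in MAK683. With only peaks of −log10 q at least 10 kept, 73 members had one in DMSO and 63 in MAK683. The shares of all genes are those of the looser calls and do not apply to these counts. No share of all genes is given at the stricter cutoff, so the fall from 73 to 63 is not read as particular to the members. The peaks were of middling height. In DMSO the members had a median of 2.02 RPM (interval of the median 1.81 to 2.17) and genes with a peak 1.99 RPM, and in MAK683 both medians were 1.31 RPM (1.15 to 1.42 for the members). Among all genes with a peak in the same library, the median member stood at percentile 52.7 in DMSO and 48.7 in MAK683. At the stricter cutoff it stood at percentile 47.2 in DMSO and 39.0 in MAK683. The members clustered in the middle of that distribution: 53 of 74 fell within its interquartile range in DMSO and 47 in MAK683. The lowest quartile held 5 members in DMSO and 17 in MAK683, and the top quartile held 16 and 10.

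**Figure D1:**
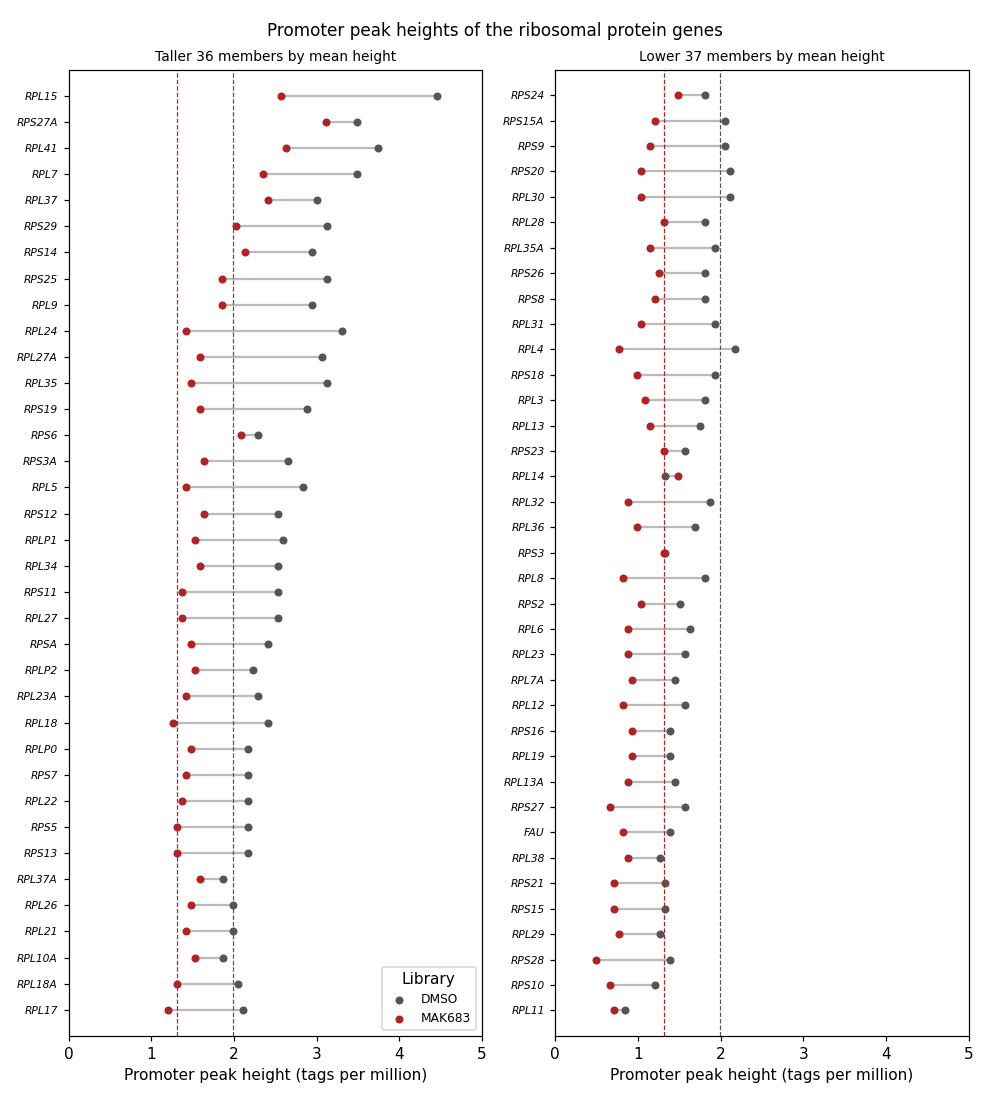
Promoter peak height of 73 of the 74 members in RPM (x axis), in the DMSO library (grey) and the MAK683 library (red), ordered by the mean of both, with dashed lines at the medians of all genes with a peak, 1.99 and 1.31 RPM. The grey point lies to the right of the red point for every member drawn except RPL14.

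The tallest members differed several-fold from the lowest. Heights ran from 0.843 to 4.46 RPM in DMSO and from 0.493 to 3.12 RPM in MAK683. RPL15 was the tallest in DMSO, with 74 tags (4.46 RPM) against 47 tags (2.57 RPM) in MAK683. RPS27A was the tallest in MAK683, with 58 tags (3.49 RPM) in DMSO and 57 tags (3.12 RPM). RPL7, a 60S protein that binds rRNA, had 58 and 43 tags. RPL7 and RPS27A stood at the same rank in DMSO, percentile 97.0 of all genes, and in MAK683 RPL7 was at percentile 94.6 and RPS27A at 99.7. These heights may not belong to the members alone. RPL15 shares its peak with NKIRAS1, RPS27A with CLHC1 and RPL7 with RDH10. The summits lay at -367 bp and -381 bp from the TSS for RPS27A, and at -322 bp and -309 bp for RPL7.

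RPL41, which encodes the smallest ribosomal protein, had 62 tags in DMSO and 48 in MAK683, but the summit of its peak lay 1391 bp and 1369 bp after the TSS, past the end of the gene. Near its own TSS no separate peak was called in DMSO, and in MAK683 a second peak had 17 tags with its summit at -95 bp. Its height is thus that of a neighbouring site. The same held for RPL19, whose tallest peak, with 23 and 17 tags, had its summit at -2501 bp and -2558 bp from the TSS. A second peak near the RPL19 TSS had 20 tags (1.20 RPM) in DMSO and 12 tags (0.657 RPM) in MAK683.

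At the low end, RPL11 had 14 tags (0.843 RPM) in DMSO and 13 tags (0.712 RPM) in MAK683. RPS10, a protein of the 40S head, had 20 and 12 tags. RPL29, a small 60S protein, had 21 and 14 tags, and RPS28 had 23 and 9, the fewest of any member in MAK683. The lowest peaks called anywhere in the genome had 6 tags in either library, so all of these were above that limit. The order of the members was similar in both libraries (Spearman's rho 0.81 over the 74 members, 0.80 over 13120 genes with a peak in both). This is a description, since both libraries share the same promoters and base composition.

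The members were lower in MAK683, and so were most promoters. The median ratio of the members was -0.71 on the log2 scale, or 0.610-fold, and it was -0.48 over all genes with a peak in both libraries. The interval of the members' median, -0.76 to -0.63, describes the spread among 74 genes and not among cultures. Of the 74 members, 73 were lower and 1 was higher, and of all genes with a peak in either library 80.2% were lower. At least 1.5-fold lower were 50 members (67.6%) against 35.0% of these genes, and at least 1.5-fold higher were 0 members against 8.93%. The 80.2% and 35.0% given below for all genes are of this wider set, where a missing peak was set to 0.361 RPM. Among genes with a peak in both libraries, as every member had, 37.3% were at least 1.5-fold lower. The counting interval lay below 0 in 29 members (39.2%) against 21.8% of genes with a peak in both libraries, and above 0 in no member against 0.938%. The MAK683 library held 161684 peaks over the genome against 114506 in DMSO. With the ratios centred on the median of all genes, the members' median was -0.24, 61 members lay below the centre and 13 above, and 7 members instead of 50 remained at least 1.5-fold lower, beside 4.60% of all genes.

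**Figure D2:**
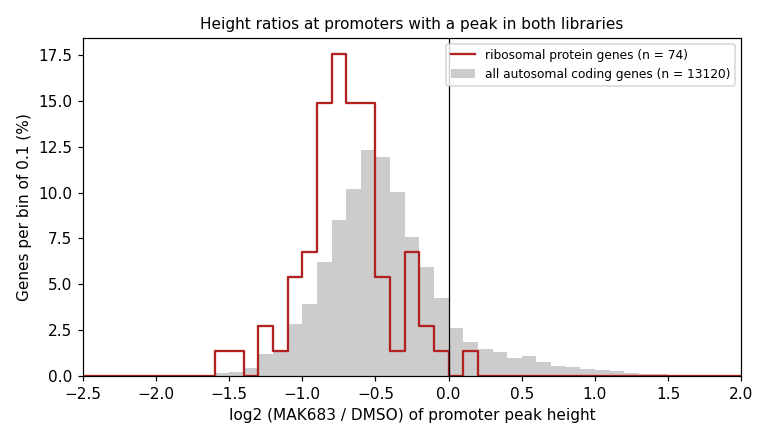
Share of genes (y axis, percent) in bins of 0.1 of the log2 ratio of promoter height, MAK683 over DMSO (x axis), for the 74 members (red line) and for 13120 autosomal coding genes with a peak in both libraries (grey bars). The members center at -0.71 and all genes at -0.48, and the long right tail of the grey bars holds 1 member, RPL14, above 0.

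Counting error was as large as the spread among the members. Their ratios had an SD of 0.30 on the log2 scale, and the median counting standard error of a single member was 0.39, whereas over all genes the SD was 0.44 and the standard error 0.38. The interval left out the members' own median in 2 members (2.70%), RPL14 and RPS27A, both above it. It left out the median of all genes in 2 members as well, RPL4 and RPL24, both below it. The intervals of all other members included the members' median, and the order given here is that of the point values.

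RPL4 had 36 tags (2.17 RPM) in DMSO and 14 tags (0.766 RPM) in MAK683, a ratio of -1.50 (-2.39 to -0.61). Its peak is shared with the divergent gene ZWILCH, and the summit lay at -407 bp and -302 bp from the RPL4 TSS. RPS28 had 23 and 9 tags, a ratio of -1.49 (-2.60 to -0.38), and shares its peak with NDUFA7. Its summit lay at -125 bp in DMSO and -425 bp in MAK683, so the ratio compares different positions. With all peaks in the window summed, its ratio was -1.14. RPS27 had 26 and 12 tags, a ratio of -1.25 (-2.24 to -0.27). RPL24 had 55 tags (3.31 RPM) in DMSO and 26 tags (1.42 RPM) in MAK683, a ratio of -1.22 (-1.89 to -0.55), and it stood at percentile 94.9 of all genes in DMSO and at percentile 55.4 in MAK683. These 4 were among 7 of the 74 members whose ratios lay in the lowest 5% of genes with a peak in either library.

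At the other end, RPL14 had 22 tags (1.33 RPM) in DMSO and 27 tags (1.48 RPM) in MAK683, a ratio of 0.16 (-0.65 to 0.97). RPS3 had 22 and 24 tags, a ratio of -0.01 (-0.85 to 0.82), and RPS6 had 38 tags in both, a ratio of -0.14 (-0.79 to 0.51). The ratio of RPS27A was -0.16 (-0.69 to 0.36). In all 4 the interval included 0, so no difference between the libraries was detectable at this depth.

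**Figure D3:**
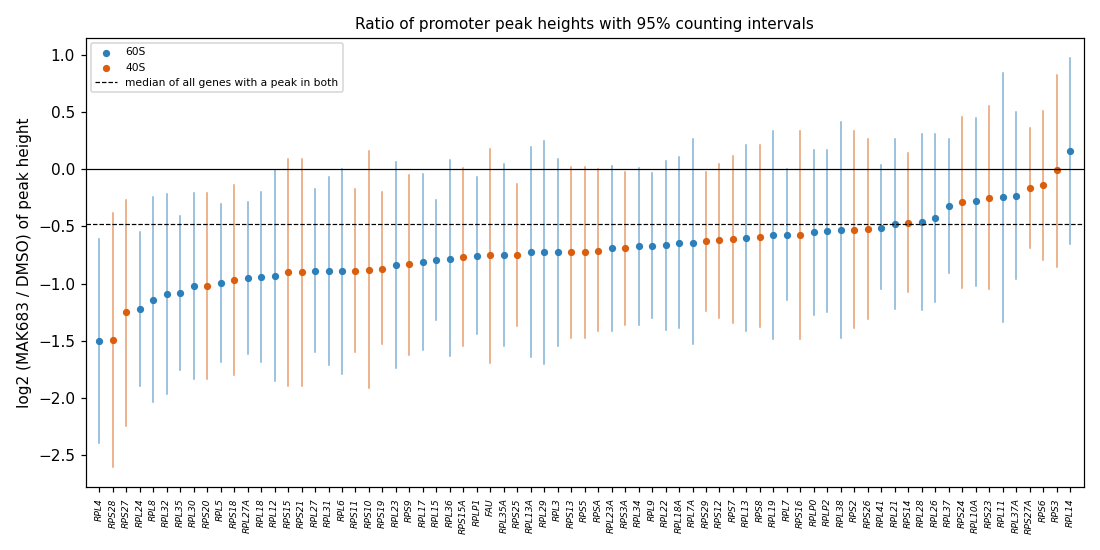
Log2 ratio of promoter height, MAK683 over DMSO (y axis), for 73 of the 74 members in order, with 95% counting intervals as vertical lines, 60S members in blue and 40S members in orange, and a dashed line at the median of all genes, -0.48. The intervals of neighbours overlap throughout, and both subunits are found along the whole order from RPL4 at -1.50 to RPL14 at 0.16.

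The medians of both subunits lay close together. The 43 genes of the 60S subunit had median heights of 1.99 RPM and 1.31 RPM and a median ratio of -0.72, and 42 of them were lower. The 31 genes of the 40S subunit had 2.05 RPM and 1.31 RPM and a median ratio of -0.71, and all 31 were lower. Of all genes 80.2% were lower. At least 1.5-fold lower were 29 (67.4%) and 21 (67.7%) of them, against 35.0% of all genes.

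Within the 60S subunit, the P stalk recruits the GTPases that drive translation. Its scaffold RPLP0 had 36 tags (2.17 RPM) in DMSO and 27 tags (1.48 RPM) in MAK683, a ratio of -0.55 (-1.27 to 0.17). The acidic stalk protein RPLP1 had 43 and 28 tags, a ratio of -0.76 (-1.44 to -0.07), and its partner RPLP2 had 37 and 28 tags, a ratio of -0.54 (-1.25 to 0.17). With RPL12 at the base of the stalk, the median of the 4 was -0.66. The partners of 5S rRNA, which also bind MDM2 and so bear on p53, were RPL5, with 47 and 26 tags and a ratio of -0.99 (-1.68 to -0.30), and RPL11, with a ratio of -0.24 (-1.33 to 0.84). Their intervals overlapped, and the height of RPL5 in DMSO, 2.83 RPM, was well above that of RPL11.

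The 8 genes whose proteins line the peptide exit tunnel or surround its mouth had a median ratio of -0.75, with 8 lower and 6 (75.0%) at least 1.5-fold lower, against 80.2% and 35.0% of all genes. The 7 genes around the peptidyl transferase center and the face toward the 40S subunit had a median of -0.84, with 7 lower and 5 (71.4%) at least 1.5-fold lower, against the same shares. Among these, RPL3, which reaches to the peptidyl transferase center, had 30 tags (1.81 RPM) and 20 tags (1.09 RPM), a ratio of -0.72 (-1.54 to 0.09). Of the 60S proteins outside these groups, RPL15 had a ratio of -0.79 (-1.32 to -0.27). RPL13A, which also acts in translational silencing after interferon gamma, had 24 and 16 tags, a ratio of -0.72 (-1.64 to 0.19).

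In the 40S subunit, the 7 genes at the mRNA entry and decoding side had a median ratio of -0.53, with 7 lower, against 80.2% of all genes. Of the 7, 3 (42.9%) were at least 1.5-fold lower, a share near the 35.0% of all genes. RPS3 and RPS27A belong to this group. So does FAU, made as a fusion of a ubiquitin-like protein with a 40S protein, which had 23 tags (1.39 RPM) and 15 tags (0.821 RPM) and a ratio of -0.75 (-1.69 to 0.18). FAU shares its peak with MRPL49, a gene of the mitochondrial ribosome. The 6 genes of the platform and mRNA exit had a median of -0.71, with 6 lower and 4 (66.7%) at least 1.5-fold lower, against 80.2% and 35.0% of all genes. RPS14, the gene of the 5q- syndrome, had 49 and 39 tags, a ratio of -0.47 (-1.07 to 0.14), and RPSA, also known as the laminin receptor, had 40 and 27 tags, a ratio of -0.71 (-1.41 to -0.00). RPS28 is in this group and was its lowest member.

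The 20 members in which mutations cause Diamond-Blackfan anemia had a median ratio of -0.78, with 20 lower (80.2% of all genes and 98.6% of all members were lower). At least 1.5-fold lower were 15 of them (75.0%), against 35.0% of all genes and 67.6% of all members. The interval lay below 0 in 11, against 21.8% of all genes with a peak in both libraries and 39.2% of all members. RPS19 among them had 48 tags (2.89 RPM) and 29 tags (1.59 RPM), a ratio of -0.87 (-1.53 to -0.20).

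The members were also compared by how their promoters are built. In 20 members the TSS of another coding gene lay inside the peak of either library or within 1 kb of it. Their median was -0.77, and the other 54 had -0.69. The 20 include members whose partner is a record that joins them to a neighbour, RPS10-NUDT3 and RPL17-C18orf32. The 27 members that host snoRNA genes in their introns (58 snoRNA genes in all) had -0.71, and the other 47 had -0.72. Members with an ETS core had a median of -0.72 and those without it -0.68. For the YY1 word the medians were -0.75 and -0.67, for the ZBTB33 palindrome -0.87 and -0.69, and for the pyrimidine start -0.71 and -0.74.

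The members stood below other genes of like height. Genes with a peak in both libraries were divided into quartiles by mean height. In the lowest quartile the median of 15 members was -0.72 against -0.29 for all genes there. In the next quartiles 25 members had -0.77 against -0.52, 20 had -0.68 against -0.52, and in the top quartile 14 had -0.65 against -0.50. With quartiles of DMSO height alone, the members' medians were -0.57, -0.68, -0.72 and -0.72 from the lowest to the top quartile, against -0.14, -0.49, -0.53 and -0.58. Base composition differed between the members and other genes, and the median ratio of all genes ran from -0.53 in the quartile of lowest GC to -0.41 in the richest. Its part in the members' ratios was not tested beyond these quartiles. In the quartile of lowest GC, which held 44 members, their median was -0.68 against -0.53. In the next quartile 24 members had -0.72 against -0.50, and in the third 6 members had -0.99 against -0.46, while the quartile richest in GC held 0 members. On the gene-rich chromosomes 17, 19 and 22, 19 members had -0.72 against -0.54, and on the other autosomes 55 had -0.67 against -0.46.

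Other genes of the translation apparatus also had medians below that of all genes. Ribosome biogenesis factors were lower to about the same degree as the members. Mitochondrial ribosomal protein genes and translation factors lay between the members (-0.71) and all genes with a peak in both libraries (-0.48). All 46 ribosome biogenesis factors had a peak in both libraries, with median heights of 2.35 RPM and 1.34 RPM and a median ratio of -0.76, and 32 (69.6%) were at least 1.5-fold lower, against 35.0% of all genes. The nucleolar proteins NCL and NPM1 were both at -1.14, and FBL, the methyltransferase of rRNA, was at 0.05. The 78 mitochondrial ribosomal protein genes had 2.11 RPM and 1.37 RPM and a median of -0.61, and 42 (53.8%) were at least 1.5-fold lower. The 37 translation factors had 2.17 RPM and 1.59 RPM and a median of -0.60, with 20 (54.1%) at least 1.5-fold lower. The interquartile ranges of all these lists overlapped that of the members, -0.89 to -0.54. So did that of all genes, -0.70 to -0.23, so the overlap does not set these lists apart.

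**Figure D4:**
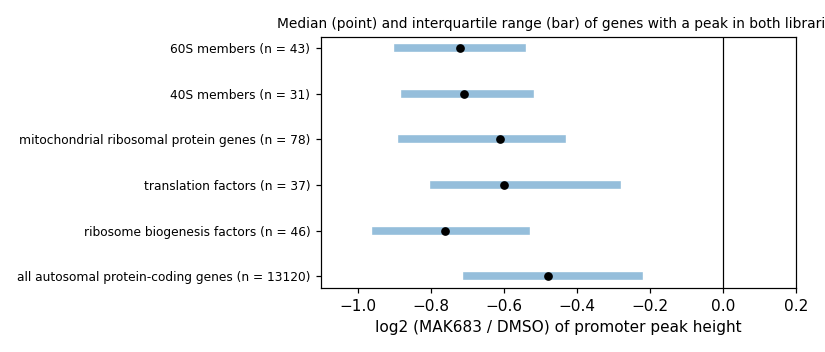
Log2 ratio of promoter height, MAK683 over DMSO (x axis), for the members of each subunit, for 3 other gene lists and for all autosomal coding genes, with the median as a point and the interquartile range as a bar. The medians of the lists run from -0.76 for ribosome biogenesis factors to -0.60 for translation factors, below -0.48 for all genes, and the bars overlap.

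Peaks over the members were narrower in MAK683. The median width was 1606 bp in DMSO and 1044 bp in MAK683, and 68 members (91.9%) were narrower, with a median ratio of 0.704. For all genes with a peak in both libraries the share was 74.2% and the ratio 0.840. The widest was the peak over RPL10A, 10073 bp in DMSO and 1371 bp in MAK683. Width is read where the same signal crosses the calling threshold, so it is not a measure independent of height.

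The summit lay just before the TSS in most members. Upstream of the TSS were 68 summits (91.9%) in DMSO and 69 (93.2%) in MAK683, against 71.2% and 69.2% of all genes. Within 150 bp upstream lay 50 (67.6%) and 39 (52.7%), against 41.8% and 38.7%. The median distance was -94.5 bp in DMSO and -118 bp in MAK683, against -59.0 bp and -58.0 bp. For RPL15, RPS19 and RPL14 the DMSO summits, at -85, -93 and -41 bp, lay within the bases printed for them. In MAK683 the summit of RPS19 was called at -448 bp. For RPLP1 the summit was at -96 bp in DMSO and -419 bp in MAK683. The ratios of such members compare different positions, which the counting intervals do not cover.

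**Figure D5:**
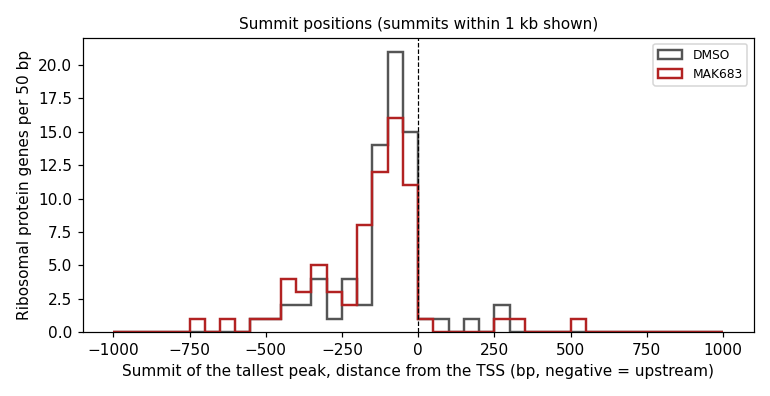
Number of members (y axis) by distance of the summit of the tallest peak from the TSS (x axis, bp, bins of 50 bp, negative values upstream) in DMSO (grey) and MAK683 (red). Both libraries peak within 150 bp upstream, which holds 50 members in DMSO and 39 in MAK683, and RPL19 and RPL41 lie outside the range.

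Relatives of the members were measured in the same way. The 4 X-linked ribosomal protein genes all had a peak in both libraries: RPL10, with a ratio of -0.97 (-1.80 to -0.14), RPL36A at -0.53, RPL39 at -0.43 and RPS4X, the lowest of them, with 12 tags in DMSO and 10 in MAK683. Of 8 paralogs, RPL3L, used in heart and skeletal muscle, and RPL10L, used in testis, had no peak in either library. RPS27L, a p53 target, had 51 tags (3.07 RPM) and 22 tags (1.20 RPM), a ratio of -1.35 (-2.07 to -0.63). RPL39L had 49 and 23 tags, a ratio of -1.23 (-1.94 to -0.51). RPL7L1, RPL26L1, RPL22L1 and RPL36AL had -0.60, -0.59, -0.53 and -0.28.

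Processed pseudogenes are copies of mRNAs that were inserted elsewhere in the genome, mostly without a promoter, and ribosomal protein mRNAs gave rise to many of them. Of 1438 named after ribosomal proteins, 104 (7.23%, Clopper-Pearson interval 5.95 to 8.70) had a peak within 1 kb of their start in DMSO and 117 (8.14%, 6.78 to 9.67) in MAK683. Other processed pseudogenes had one in 8.03% and 10.5% of 7808. The median height over the ribosomal protein pseudogenes with a peak was 0.633 RPM in DMSO and 0.547 RPM in MAK683, well under the 2.02 RPM and 1.31 RPM of the members.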

How the data were processed

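ATAC-seq of G401 cells gave 1 library per condition, sequenced as paired reads of 150 bases. The authors trimmed the reads with Trim-galore and aligned them to hg19 with Bowtie2, and per the file headers MACS 2.1.1.20160309 was run separately on DMSO and on MAK683. The calls used no control, a shift of -100 bp, an extension of 200 bp, 1 tag per position and a q-value cutoff of 0.05. The pileup that the authors deposited is a signal in whole tags over the summit and carries no correction for library size. Fold enrichment, as deposited, is the ratio of that pileup to the library's background, and the deposited p-values and q-values are given as −log10. The pileup was divided here by the tags after filtering, 16598348 for DMSO and 18265284 for MAK683 (69.4% and 68.4% of all tags), and multiplied by 1000000.

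TSSs were those of the canonical transcripts of GENCODE release 44 on GRCh37, the build of the files. A gene without a peak in one library was set to 6 tags of the DMSO library (0.361 RPM), which no member needed in the main calculation. Heights carry exact Clopper-Pearson intervals, shares Wilson or Clopper-Pearson intervals as named and log2 ratios Poisson intervals, all at 95%, and intervals of medians come from order statistics. No test was run, since each group has 1 library. The calculation was tested on simulated data, with Python 3.11.15, numpy 2.4.6, scipy 1.17.1, pandas 2.3.3 and pysam 0.24.0.

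Of the members, 1 enters all counts and medians but is not reported here singly. The members and gene lists were chosen with earlier results of these data known. Named members were 14 fixed genes and the 4 at each end of the rankings by mean height and by ratio. Members sit in 1 library together and are not replicates of a condition.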

Additional observations from a re-analysis of the deposited data

How the results depend on the processing

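No paired analysis was possible because each condition had 1 library and the labels give no replicate numbers, so leaving out a replicate was not possible either. Over 11 alternatives other than centring (windows, TSS sets, a stricter q-value, peak measures and scalings), the members' median log2 ratio stayed between -0.74 and -0.58, and its distance from all genes between -0.29 and -0.20. Of 392 alternative values, 369 moved by less than the bound set for them, and none changed sign among those whose interval left out 0. The 369 are no measure of stability, since some values, such as percentiles under rescaling, could not move. For single genes the bound was wide. RPS28 went from -1.49 to -0.62 with −log10 q at least 10 and FAU from -0.75 to 0.09 with all peaks summed, and neither counted as moved. At that q-value cutoff a missing peak was set to the floor of that setting. The -0.62 of RPS28 rests on this floor and not on a measured MAK683 peak. Members without a MAK683 peak at that cutoff enter the median at the same floor. Without depth scaling, the medians were -0.58 for the members, -0.58 for 60S, -0.57 for 40S, -0.47 for mitochondrial ribosomal proteins and -0.62 for biogenesis factors, and the members' heights were 33.5 and 24.0 tags. Scaling by total tags gave heights of 1.40 and 0.899. Centring on all genes gave -0.24, -0.25, -0.23, -0.13 and -0.28 in the same order and -0.12 for translation factors, with 13 members higher and 7 at least 1.5-fold lower. The members higher in MAK683 were 2 without depth scaling, 2 by fold enrichment, 2 with the summit required within 1 kb and 5 with all peaks in the window summed. A member had a DMSO peak in 73 of 74 cases with the summit within 1 kb, and in 73 (MAK683 63) with −log10 q at least 10. RPL41 moved to -2.00 with a 0.5 kb window and to 1.36 with the summit within 1 kb, where its DMSO value is the floor. Heights of 9 to 74 tags limit single genes to wide intervals.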
